A study of Mus musculus with 2 samples.

Results

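Shared DNase-seq peaks with a higher value in replicate 2 than in replicate 1 numbered 2946 of the 54179 shared peaks with a mean value of at least 0.5, which is 5.44%. DNase-seq marks DNA that the enzyme DNase I can reach in the nucleus, and a peak is a stretch where such cuts pile up. Both libraries were made from testes of B6CASTF1/J males aged 14 days, hybrids of C57BL/6 and a strain derived from Mus castaneus, and no treatment is named. Replicate 1 is labelled as 3 males, replicate 2 as a male or males of unstated number, and 1 donor label covers both libraries. The list of replicate 1 held 101172 peaks and that of replicate 2 held 117359, and 83530 replicate 1 peaks overlapped a replicate 2 peak by at least 1 bp. A shared peak was a member when its replicate 2 value was at least 1.5 times its replicate 1 value. Where several replicate 2 peaks overlapped it, the highest was used. The deposited value of a peak is a signal whose scale the sources used here do not give. The opposite set, with replicate 1 at least 1.5 times higher, held 2819 peaks, or 5.20%, so the 2 directions were of near equal size. The 2 libraries form a single group, and no test of a condition was possible. The ratio that chose the members is given below as a description.

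Nuclei of a 14-day-old mouse testis come from the seminiferous tubules, where Sertoli cells nurse germ cells that run from spermatogonia to spermatocytes, and from the interstitium, where Leydig cells make testosterone beside vessels and macrophages. Open DNA away from gene starts is usually open in few cell types and carries the recognition sequences of the transcription factors that those cells use. In the testis such factors include DMRT1 in Sertoli cells and spermatogonia, SOX9 in Sertoli cells, and GATA4 and NR5A1 in Sertoli and Leydig cells, while CTCF, which organises chromatin loops, is bound at much the same sites in most cells.

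Sequences of 7 members show what these peaks look like. They are printed because they lie nearest to genes that mark spermatogonia, Leydig cells or Sertoli cells and hold a recognition word for one of the factors above. The first 3 were the members with the highest ratio of their gene list that hold such a word, and the other 4 were picked from the Sertoli cell list after their values were seen. Letters are the plus strand of the GRCm38.p6 (mm10) reference, 5′ to 3′, over the whole replicate 1 peak, not the alleles of these mice. Capitals mark matches, on either strand, to the word TACANTGT of DMRT factors, the word AGATAA of the family of zinc finger proteins that includes GATA4, the word CAAGGTCA of NR5A1 and the word AACAATGG of SOX factors. The Itga6 peak is chr2:71701540-71701667, the Srd5a1 peak chr13:69597401-69597660 and the Sox9 peak chr11:112770601-112770820. The Fshr peak is chr17:89144861-89145100, the Inhbb peak chr1:119366360-119366534, the Gata1 peak chrX:7979250-7979520 and the Dmrt1 peak chr19:25515081-25515320.
Itga6: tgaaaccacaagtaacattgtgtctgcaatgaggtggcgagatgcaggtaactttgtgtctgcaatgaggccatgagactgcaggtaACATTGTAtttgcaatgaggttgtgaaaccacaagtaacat
Srd5a1: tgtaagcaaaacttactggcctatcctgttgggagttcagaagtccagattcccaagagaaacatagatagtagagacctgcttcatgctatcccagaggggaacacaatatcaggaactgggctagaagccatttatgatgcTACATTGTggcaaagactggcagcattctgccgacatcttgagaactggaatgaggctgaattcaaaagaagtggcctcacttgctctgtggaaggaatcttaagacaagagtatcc
Sox9: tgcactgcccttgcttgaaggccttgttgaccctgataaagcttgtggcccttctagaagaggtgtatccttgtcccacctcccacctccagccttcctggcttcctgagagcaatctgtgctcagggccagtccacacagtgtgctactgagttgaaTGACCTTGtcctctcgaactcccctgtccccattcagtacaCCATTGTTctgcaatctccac
Fshr: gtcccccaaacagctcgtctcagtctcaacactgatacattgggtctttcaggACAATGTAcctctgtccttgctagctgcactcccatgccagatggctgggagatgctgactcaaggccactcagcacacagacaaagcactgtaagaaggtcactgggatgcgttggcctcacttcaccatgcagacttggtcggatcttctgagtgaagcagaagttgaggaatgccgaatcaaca
Inhbb: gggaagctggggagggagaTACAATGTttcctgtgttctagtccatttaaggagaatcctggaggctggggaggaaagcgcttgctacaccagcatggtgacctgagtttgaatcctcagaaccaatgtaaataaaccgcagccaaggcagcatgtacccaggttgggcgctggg
Gata1: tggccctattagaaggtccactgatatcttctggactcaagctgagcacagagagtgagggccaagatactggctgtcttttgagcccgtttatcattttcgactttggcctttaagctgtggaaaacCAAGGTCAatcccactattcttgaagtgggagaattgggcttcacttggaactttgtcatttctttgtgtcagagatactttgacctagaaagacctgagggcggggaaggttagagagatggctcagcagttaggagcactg
Dmrt1: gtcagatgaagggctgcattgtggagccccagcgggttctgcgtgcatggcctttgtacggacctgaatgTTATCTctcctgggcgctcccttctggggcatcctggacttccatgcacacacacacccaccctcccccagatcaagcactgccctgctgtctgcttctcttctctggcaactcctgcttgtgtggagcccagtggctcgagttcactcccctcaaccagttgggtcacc

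Distances here and below run to the nearest transcript start of a protein-coding gene, which can lie inside that gene. The Itga6 peak lay between genes, 44.0 kb from the start of Itga6, whose integrin subunit marks the surface of spermatogonia. Its value was 0.328 in replicate 1 and 0.812 in replicate 2, a ratio of 2.47, and it held a single DMRT word. The Srd5a1 peak lay in an intron, 2.7 kb from a transcript start within Srd5a1, a steroid reductase gene of Leydig cells. Its values were 0.726 and 1.39, a ratio of 1.91. The Sox9 peak lay 11.5 kb from the start of Sox9, which directs Sertoli cell differentiation, and rested on 1.12 and 2.08, a ratio of 1.86. It held an NR5A1 and a SOX word. A testis enhancer of Sox9 bound by NR5A1 and SOX proteins is known upstream of the gene; whether this peak is that enhancer was not tested. The Fshr peak, in an intron 55.7 kb from the start of the follicle-stimulating hormone receptor gene of Sertoli cells, had 0.790 and 1.40 and a DMRT word.

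Members were peaks of low to middling strength. Their values ran from 0.285 to 21.7 in replicate 1, with a median of 0.559, and from 0.604 to 41.1 in replicate 2, with a median of 0.929. The mean of both had a median of 0.743, below the 0.969 of all 54179 peaks, and 2205 members had a mean under 1 while 21 reached 5. The ratio had a median of 1.62 and ran to 3.30, and 159 members reached a ratio of 2. Over all eligible shared peaks the median ratio was 0.994. The share of peaks that were members was 8.64% in the lowest of 10 equal bins of mean value and 0.314% in the highest. In the opposite set it was 4.52% in the lowest bin, 6.98% in the seventh and 1.53% in the highest. Since the share of members varied with the value, location and sequence are set below against shared peaks of like value. That means all 54179 peaks, members included, weighted to the members' make-up over the 10 bins.

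Values below 1 were whole multiples of a smallest step, 0.00538 in replicate 1 and 0.00377 in replicate 2, within 0.05 of a step. Members spanned a median of 104 and 246 such steps. What a step counts is not stated in the sources used here, and no error of a single ratio is given, since the same 2 values chose the members. Just inside the threshold stood peaks near Tmem131l, with 1.102 and 1.65, and near a transcript start within Akap13, with 0.747 and 1.12. Just outside it stood peaks near Chrd, with 0.473 and 0.710, and in the Daam1 promoter, with 6.52 and 9.77. Overlapping members merge into 2929 stretches, and 61 members share their replicate 2 peak with another member. The shorter, stricter peak list also held 2086 of the members in replicate 1 and 2888 in replicate 2.

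**Figure D1:**
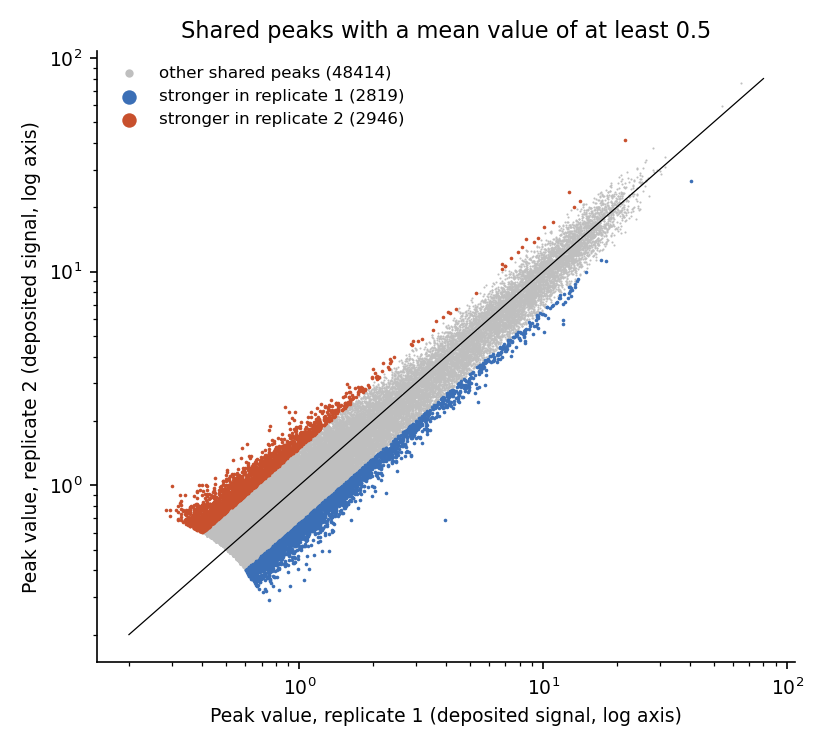
Deposited peak value in replicate 1 (x axis) and replicate 2 (y axis), both log axes, of the 54179 shared peaks with a mean of at least 0.5; the line marks equal values. The 2946 members (red) and the 2819 peaks stronger in replicate 1 (blue) flank the other peaks (grey), and few members reach a mean of 5.

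The 10 members with the highest ratios lay mostly in introns or between genes. The highest of all, 3.30, lay on chromosome Y nearest to the predicted gene Gm21860, with 0.301 and 0.993. A pair lay 26.6 and 26.9 kb from a transcript start within Ide, which encodes insulin-degrading enzyme. The pair had ratios of 2.79 and 2.65 against the same replicate 2 peak and counts as a single stretch there. An intronic peak of Kcnj6, a potassium channel gene, had 0.285 and 0.770, and one of Cdh23, a cadherin gene, had 0.387 and 1.00. Only the Atp8b2 peak lay in a promoter window, with 0.608 and 1.57. Peaks near Synpo, Ttll11, St18 and Yipf5 made up the rest, with ratios of 2.56 to 2.65. Several of these ratios set a narrow replicate 1 peak against a wider replicate 2 peak. The 59 bp Kcnj6 peak, chr16:94789937-94789995, was set against chr16:94789941-94790300. The 114 bp Synpo peak, chr18:60606641-60606754, was set against chr18:60606221-60606700. The same held for Atp8b2, Cdh23, Ttll11 and Ide, while widths were more alike at Gm21860, St18 and Yipf5.

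The 10 strongest members were of another kind: 9 of them lay in promoter windows and 1 in an intron. The strongest was at Gm21887 on chromosome X, with 21.7 and 41.1. The Mid1 intron peak on the same chromosome had 10.04 and 16.1. Mid1 spans the edge of the pseudoautosomal region, whose sequence X and Y share, so reads there can be hard to place. The promoter of Sp1, which encodes a general activator, had 12.8 and 23.5. Promoters of Arid4a, G3bp1, Zbtb20, Phf12 and Traf7 followed, with replicate 2 values of 21.3, 20.1, 17.1, 13.8 and 13.0, and those at Spsb3 and Slc25a42 had 14.4 and 14.2. Among the 21 members with a mean of at least 5, 9 held the word AGCCAAT of the promoter factor NFY, which is 42.9% against 15.2% of all 6369 eligible peaks that strong. That word was singled out after the values were seen, and over all 2946 members it was in 3.87%, against 3.52% at like value, 3.99% with GC matched and 5.15% of all windows.

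Members lay away from promoters. The midpoints of 365 members fell within 1000 bp of a transcript start of a protein-coding gene in GENCODE M21. That is 12.4% (95% Wilson interval 11.2 to 13.6), against 27.4% of shared peaks of like value. These promoter windows include those of starts inside a gene, as at Akap13, Scarb1, Fgf9 and Atp8b2. Introns held 1191 members, 40.4% against 30.6%, exons 94, 3.19% against 4.92%, and the space between genes 1296, 44.0% against 37.0%. The opposite set also lay in promoters less than its own like-value peaks did, 26.5% against 36.7%, but its share in introns, 25.5%, was near the 25.7% of like value. Of the members, 614 (20.8%) lay more than 50 kb from any start, against 15.2% of like value. Within promoter windows 1.65% of eligible peaks were members, within introns 9.10% and between genes 7.71%.

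**Figure D2:**
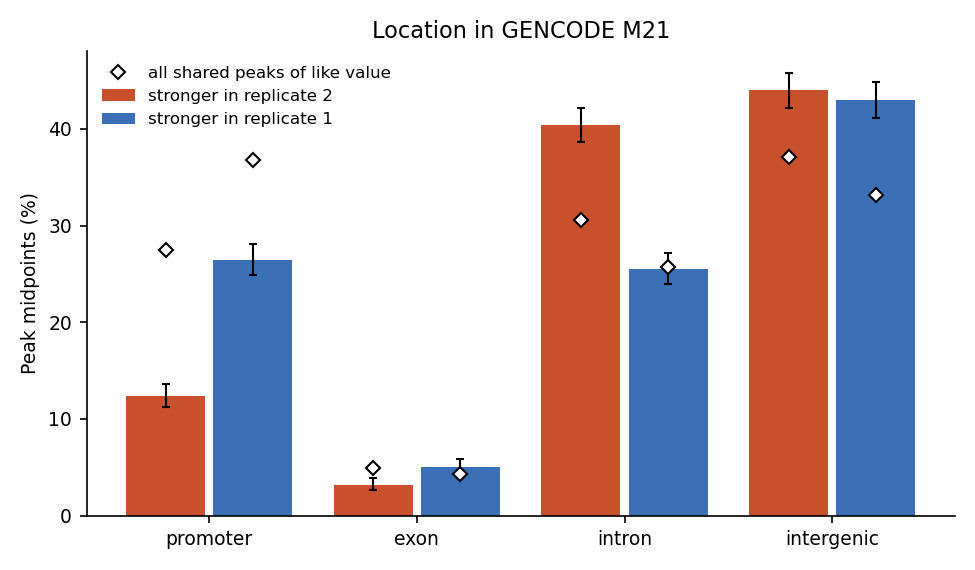
Share of peak midpoints (y axis, percent) in each class of location (x axis) for members (red, 2946) and peaks stronger in replicate 1 (blue, 2819), with 95% Wilson intervals; diamonds are all shared peaks weighted to each set's values. Members stand at 12.4% in promoters and 40.4% in introns, on either side of their diamonds at 27.4% and 30.6%.

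Base composition moved with the same split. The 200 bp window at the centre of a member held 51.2% GC on average (SD over peaks 5.53), against 55.7% at like value, and its observed over expected CpG ratio was 0.255 against 0.390. Members made up 11.7% of peaks in the lowest of 5 equal bins of GC content and 0.332% in the highest. The opposite set had 57.2% GC, close to the 57.6% of its own like-value peaks, with 7.36% and 5.75% in the same lowest and highest bins. With peaks matched on both value and GC, the promoter share to set beside the members' 12.4% was 16.1%, the intron share beside 40.4% was 35.6%, and the share between genes was 44.3% beside 44.0%. The gap in promoter share was -15.0 percentage points at like value and -3.71 with GC matched as well. Members that did lie in promoter windows had a CpG ratio of 0.421 against 0.626 at like value. Over all 2946 members, peaks were 217 bp wide in replicate 1 and 250 bp in replicate 2, against 230 and 242 bp at like value. Repeat-masked bases filled 10.8% of the windows, against 10.2%.

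Of 20 recognition words searched, that of DMRT factors showed the widest gain over shared peaks of like value. A match to TACANTGT, on either strand of the 200 bp window, was found in 420 members, 14.3% (13.0 to 15.6), against 4.78% of shared peaks of like value, 6.76% matched on GC as well, and 3.83% of all 54179 windows of that length. The opposite set held it in 1.63% of its peaks. Read backwards, a word of the same letters in reverse order, it was in 4.75% of members against 2.25% at like value, so the gap was 9.48 percentage points for the word as written and 2.50 points for the backward word. The DMRT share of members was 7.95% in promoter windows, 15.3% in introns and 15.7% between genes, against 1.42%, 6.94% and 5.60% at like value within each class. The match lay within 50 bp of the peak's centre in 73.1% of the 420 members, against 65.6% in other eligible peaks with a match. DMRT1 is needed in both Sertoli cells and spermatogonia, and related family members read the same word.

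GATA, NR5A1 and SOX words were also more frequent, as were some words of other factors given further below. AGATAA was found in 445 members, 15.1% (13.9 to 16.4), against 8.20% at like value, 10.8% with GC matched and 6.73% of all windows. CAAGGTCA was in 153 members, 5.19% (4.45 to 6.05), against 3.13%, 3.79% and 2.56%, and AACAATGG in 51, 1.73% (1.32 to 2.27), against 0.703%, 0.855% and 0.592%. Read backwards, the GATA and NR5A1 words differed little between members and like value, at 5.77% against 4.70% and 0.645% against 0.773%. The backward SOX word had a like excess, 1.09% against 0.489%, so for SOX an excess of the word and one of its base composition cannot be told apart. At least 1 of the 4 words was in 973 members, 33.0%, against 15.7% at like value, 20.5% with GC matched and 7.34% of the opposite set. At least 2 were in 93 members, 3.16% against 1.11%. The DMRT and SOX words share inner letters but differ at both ends, so no site matches both.

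Among the DMRT members chosen here for their high ratio, a peak 1.4 kb from the start of Bud23 had 0.909 and 2.20, an intronic peak of Ccnjl had 0.403 and 0.936, and an intronic peak of Grhl2 had 0.505 and 1.16. The Dcbld2 peak, 5.1 kb from the gene's start, held both a DMRT and an NR5A1 word and had 0.419 and 0.914. An intronic peak of Lin28a, an RNA-binding protein gene of spermatogonia, held GATA and DMRT words and had 0.769 and 1.42.

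CTCF and REST showed the opposite. The CTCF word was found in 3 members, 0.102% (0.0346 to 0.299), against 7.32% of shared peaks of like value and 6.66% of all windows, while 716 of the 2819 peaks stronger in replicate 1 held it, 25.4%. The word of REST, which silences neuronal genes, was in 0 of 2946 members, which allows a share of up to 0.102% (3 counts of the total), against 0.340% at like value and 0.922% of the opposite set. The word GGGCGG of SP and KLF factors, common in CpG-rich promoters, was in 8.86% of members against 20.9% at like value, 10.9% with GC matched and 31.1% of all windows. The palindrome ACANNNTGT of steroid receptors, which can overlap a DMRT word, was in 377 members, 12.8% against 7.34%, 9.27% and 6.04%. The AP-1 word TGANTCA was in 6.38% of members, against 5.49% at like value, 6.10% with GC matched and 4.73% of all windows. The E-box CAGCTG was in 20.6%, against 17.97%, 17.1% and 16.3%. The word GTGGGNG of WT1 and EGR factors was in 26.0%, against 25.2%, 21.7% and 26.8%, so it stood well above the GC-matched share only. The TEAD word CATTCC was in 12.9%, against 10.5%, 11.6% and 9.58%. Of the 20 words searched, the members' interval lay above the share matched on value and GC for 8, below it for 3 and included it for 9. The 8 were DMRT, GATA, NR5A1, SOX, the steroid receptor palindrome, the E-box CAGCTG, WT1/EGR and TEAD, and the 3 were CTCF, REST and SP/KLF. These intervals take peaks of the same 2 libraries as independent, so this sorting is a description and not a test.

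These shares varied with the ratio. Where replicate 1 was more than 1.1 times higher, the DMRT share had no steady course and stood between 1.11% and 3.37%, the latter on 3 of 89 peaks. The DMRT share was 2.14% in peaks within 1.1 times of equal values and 8.34% at ratios from 1.2 to 1.5, none of them members. It was 14.0% in members with a ratio under 2 and 18.2% in the 159 with a higher ratio. The GATA share was 15.0% and 17.0% in those last 2 steps. NR5A1 reached 5.35% in members with a ratio under 2 but stood at 2.52%, or 4 peaks, at higher ratios. The CTCF share ran the other way, from 27.0% where replicate 1 was at least 2 times higher to 3.78% around equal values and 0.108% in members with a ratio under 2. GC content was highest, 61.5%, where replicate 1 was 1.1 to 1.2 times higher. It was 59.8% around equal values, 49.5% at ratios of 2 or more and 53.3% where replicate 1 was at least 2 times higher. The shares thus differed on both sides of the threshold and not only across it.

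**Figure D3:**
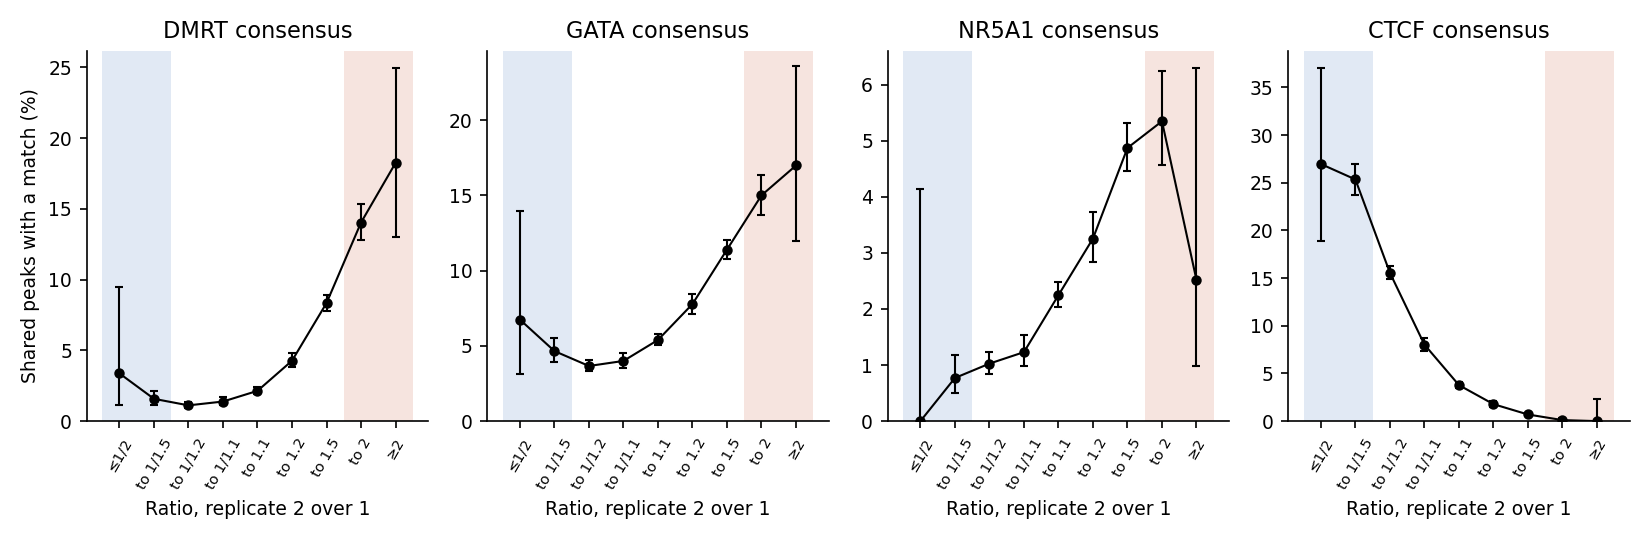
Share of shared peaks (y axis, percent) with a DMRT, GATA, NR5A1 or CTCF word in 9 steps of the ratio of replicate 2 over replicate 1 (x axis, each label the upper bound of its step), with 95% Wilson intervals. Red shading marks members and blue shading the opposite set; the DMRT share is 2.14% around equal values and 18.2% at ratios of 2 or more, while the CTCF share goes from 27.0% to 0.108% at ratios of 1.5 to 2.

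Footprints are short stretches inside a peak that are cut less than their flanks, as under a bound protein. They come from the same reads as the values that chose the members, so their counts are a description. Members held a mean of 2.27 footprints in replicate 1 (SD over peaks 1.61) against 2.70 at like value, and 3.09 in replicate 2 (SD 1.72) against 3.03. Per 100 bp of peak this was 1.06 against 1.23 and 1.47 against 1.39. The members were thus below peaks of like value in the library where they are weak and slightly above in the one where they are strong. At least 1 footprint was present in 89.3% and 95.7% of members, against 92.3% and 94.8%. The opposite set had 3.47 footprints in replicate 1 against 3.12 and 3.19 in replicate 2 against 3.45, but per 100 bp it was above like value in both libraries, at 1.70 against 1.39 and 1.56 against 1.53.

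A footprint overlapped the DMRT word by at least 1 bp in 27.1% of the 420 members in replicate 1 and in 52.1% in replicate 2. In the 1611 eligible peaks with a DMRT word outside both sets, the shares were 27.6% and 38.5%. In the 46 such peaks of the opposite set they were 39.1% and 30.4%. These sets were not matched on value, and replicate 2 had 349555 footprints in all against 269247 in replicate 1. For NR5A1 the members' shares were 42.5% and 67.3%, against 42.2% and 55.8% in the other peaks, and for GATA 15.1% and 24.0% against 15.8% and 18.2%. CTCF words in peaks outside both sets were overlapped by a footprint in 98.2% and 98.1% of cases. The deposited track of positions with a false discovery rate below 0.05 covered 349 bp of the 1000 bp around a member in replicate 1, against 400 bp at like value, and 432 against 418 bp in replicate 2. The lowest rate within the replicate 1 peak itself had a median over members of 1.30e-05 in replicate 1 and 9.94e-11 in replicate 2.

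Genes near members were counted by cell type in 15 lists. As a check of the tissue label, eligible shared peaks lay nearest to 39 of 40 Sertoli cell genes and 35 of 37 matched meiotic prophase genes. They lay nearest to 3 of 11 erythroid and 4 of 13 epididymis genes. Leukocyte genes had 14 of 20 and spermatid genes 15 of 30, so this count does not sort the lists cleanly. In bulk tissue, more cells of a type and a wider opening per cell cannot be told apart. Of the 203 eligible peaks nearest to Sertoli cell genes 21 were members, 10.3% (exact 95% interval 6.52 to 15.4), against the 5.44% of all eligible peaks and 6.22% at like value, and 4 were in the opposite set. Spermatogonial genes had 18 of 194 peaks, 9.28% (5.59 to 14.3) against 5.93% at like value, endothelial genes 9 of 71, 12.7% (5.96 to 22.7) against 6.82%, and Leydig cell genes 7 of 76, 9.21% (3.78 to 18.1) against 6.10%. Of the later germ cell lists, meiotic prophase had 1 of 71, 1.41% against 3.38%, pachytene spermatocytes 1 of 54, 1.85% against 4.87%, the piRNA pathway 1 of 66, 1.52% against 4.79%, and spermatids 2 of 44, 4.55% against 5.92%. All 4 of their intervals included the like-value share, as did those of the spermatogonial, endothelial and Leydig lists. The Sertoli interval lay just above its own, starting at 6.52% against 6.22%. The median log2 ratio over all peaks of a list was 0.10 for Sertoli cells, 0.08 for spermatogonia, 0.11 for endothelial cells and 0.09 for Leydig cells, against -0.01 over all eligible peaks. It was -0.01 for meiotic prophase and for spermatids, -0.09 for the piRNA pathway and -0.10 for pachytene spermatocytes. Promoter windows held 29.1% of eligible Sertoli peaks, 28.4% of spermatogonial, 18.3% of endothelial and 30.3% of Leydig peaks. They held 67.6% for meiotic prophase, 51.9% for pachytene spermatocytes, 42.4% for the piRNA pathway, 34.1% for spermatids and 24.3% for interstitial stroma. Neither the like-value shares nor the median ratios were matched on location. Lists of peritubular myoid cells (3 of 93) and interstitial stroma (2 of 115) had lower shares of members than like value. They were 3.23% (0.670 to 9.14) against 6.27% and 1.74% (0.211 to 6.14) against 6.49%. The stroma interval thus lay below its like-value share, while the myoid interval included its own. Lists of blood and neighbouring tissue had few eligible peaks: 2 of 27 leukocyte peaks were members, 7.41% against 6.60% at like value, 1 of 12 epididymis peaks, 8.33% against 7.03%, and 0 of 4 erythroid peaks. Genes that respond to handling had 5 members, 2.92% against 4.12%, and housekeeping genes 3 of 75, 4% against 4.09%. The intervals take the peaks of a list as independent, while 6 of the 21 Sertoli members lay near Sox9 and 4 near Inhbb, and the lists were chosen with results of these data known, so the shares are a description.

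**Figure D4:**
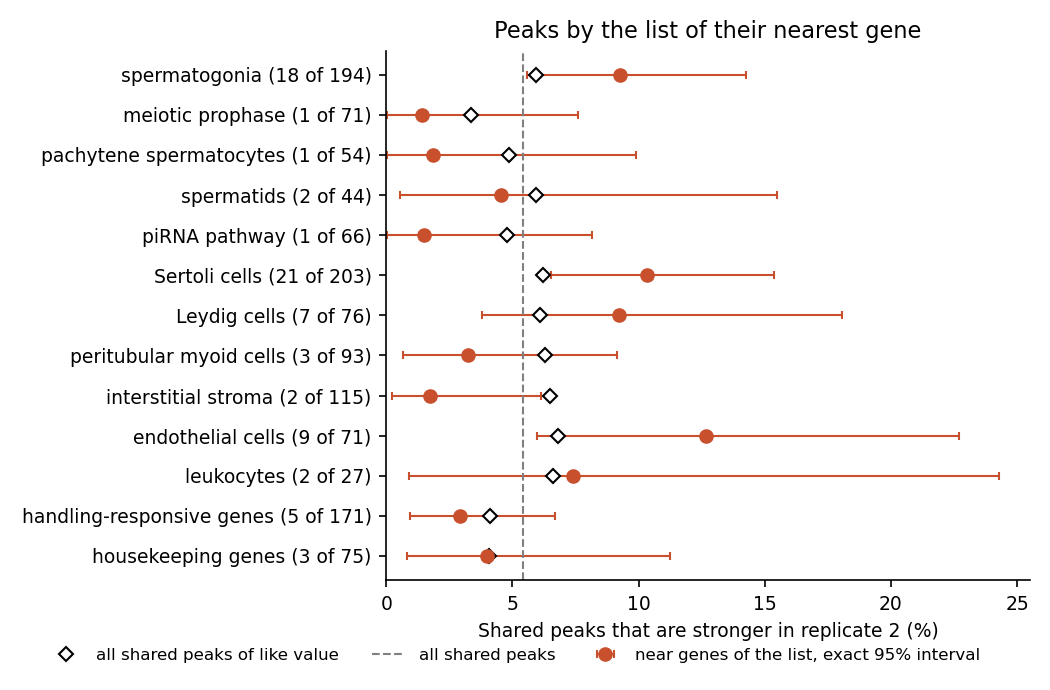
Share of eligible shared peaks that are members (x axis, percent) by the cell type list of their nearest gene (y axis, with counts), for lists with at least 20 eligible peaks; bars are exact 95% intervals, diamonds the share at like value and the dashed line the 5.44% of all. Sertoli cells stand at 10.3% and endothelial cells at 12.7%, meiotic prophase at 1.41%.

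The 21 Sertoli members belonged to 13 genes. Sox9 had 6 of its 26 eligible peaks among them and none in the opposite set, at 11.5 to 376.6 kb from its start, and the median ratio over all 26 was 1.2004. Its strongest member, 67.9 kb away, had 1.83 and 2.80, and the one next to the sequence printed above, 12.2 kb away, had 0.516 and 0.830. Inhbb, which encodes an inhibin and activin subunit, had 4 members, of which that at 32.3 kb had 0.817 and 1.29. The promoter of Shbg, the gene of sex hormone-binding globulin, had 1.69 and 2.87, the highest of the list in replicate 2. The Dmrt1 intron peak had 1.35 and 2.50 and holds a GATA word, and its footprints numbered 1 in replicate 1 and 6 in replicate 2. A promoter window within Fgf9, a growth factor gene of testis development, had a peak with 0.586 and 1.03. Gja1, which encodes the gap junction protein connexin, had 0.973 and 1.52. A peak 2.2 kb from Aard had the highest ratio of the list, 1.94, on 0.548 and 1.06. No peak of the list reached a ratio of 2.

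**Figure D5:**
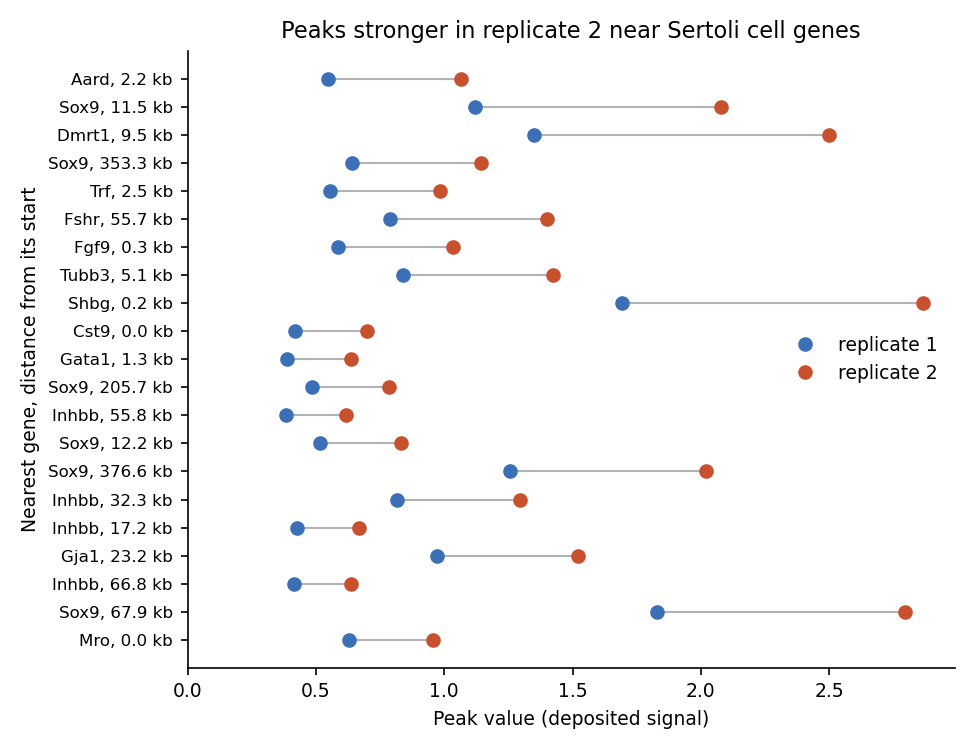
Peak value in replicate 1 (blue) and replicate 2 (red) on the x axis for the 21 members nearest to Sertoli cell genes. They are ordered by ratio on the y axis, with the distance from the gene's nearest transcript start. Replicate 2 is higher in all 21 by construction; the Shbg, Sox9 and Dmrt1 peaks reach 2.87, 2.80 and 2.50.

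Spermatogonial members belonged to 14 genes. Etv5, an ETS factor of stem cell renewal, had an intronic peak with 0.398 and 0.800 and another 1.1 kb from its start with 0.430 and 0.755. Zbtb16, a repressor that keeps stem cells undifferentiated, had intronic peaks with 2.00 and 3.51, the strongest of the list, and with 0.543 and 0.929. Single members lay near Gfra1, the co-receptor of the growth factor GDNF (0.414 and 0.642), near Kit, the receptor of differentiating spermatogonia (0.430 and 0.664), and in the promoter of Stra8, which is induced at meiotic entry (1.03 and 1.65). Dnmt3a, a DNA methyltransferase, had an intronic member with 0.608 and 1.12. Dmrt1 is on this list as well, with the same peak.

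Leydig members belonged to 3 genes only. Scarb1, the receptor that takes up cholesterol for steroids, had 3. Those in promoter windows of starts within the gene had 1.09 and 1.76 and 1.16 and 1.77. Srd5a1 had 2 and Hsd17b3, whose enzyme makes testosterone, had 2, with 0.409 and 0.706 for that at 82.8 kb and 0.409 and 0.630 for that in its intron. Endothelial members lay near Ets1, Egfl7, Pecam1, Erg and Kdr, genes of vessel identity. Of the 3 near Ets1, 2 overlap and share their replicate 2 peak, with 0.398 and 0.435 against 0.796. That with 0.398, chr9:32834901-32835180, met only the edge of this replicate 2 peak, chr9:32835161-32835440. The Pecam1 intron peak had 0.731 and 1.16 and the Kdr intron peak 0.435 and 0.676. In the meiotic list the single member lay near Majin, which ties telomeres to the nuclear envelope, with 0.554 and 0.921.

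Members were spread over 2334 nearest genes, of which 456 had at least 2 and 9 at least 5. Beside Sox9, 6 members each lay nearest to Phactr1, of 17 eligible peaks, and Tmcc3, of 23, and 2 of the Phactr1 members overlap. Genes with 5 were Adgrl2, Agpat4, Auts2, Id2, Nav2 and Zfp703. All 6 Tmcc3 members were intronic, 1.4 to 88.4 kb from its nearest start, and ran from 0.382 and 0.645 to 1.17 and 1.88. At Zfp703, 5 of 18 peaks were members, 3 with a DMRT word, and the peak 4.4 kb from its start had 0.570 and 1.02. At Agpat4, an acyltransferase gene, 5 of 12 were members and the median ratio of all 12 was 1.47. At Id2, whose protein restrains E-box factors, 5 of 23 were members, of which 2 overlap and share their replicate 2 peak.

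Neighbouring members were more common than their overall share. When the nearest eligible peak was itself a member, 256 of 2690 peaks were members, 9.52%, against 5.22% otherwise. With neighbours more than 10 kb apart the shares were 6.25% and 5.39%, so the excess lay mostly at short range. Peaks that overlap or share a replicate 2 peak were not taken as neighbours. By chromosome the share of members ran from 4.37% on chromosome 7 to 6.97% on chromosome 13 among the autosomes, with 5.61% (57 of 1016) on X and 3 of 28 on Y.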

How the data were processed

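Peaks, footprints and false discovery rates were used as the authors deposited them, for 2 libraries on mm10 per the labels. The sources used here name no aligner and no peak caller. The deposited peak value is a signal, on a scale not stated; deposited footprints carry positions and a single p-value threshold of 0.01, and the deposited rate track gives false discovery rates (p-value type) below 0.05. Peaks were intersected with Python 3.11.15, pandas 2.3.3 and bedtools 2.31.1, and intervals came from scipy 1.17.1 and statsmodels 0.14.6. Midpoints were placed in promoters, exons, introns or between genes of GENCODE M21, with 21911 protein-coding genes. Promoters were 1000 bp each side of any transcript start of a protein-coding gene. The 20 recognition words were searched on both strands of 200 bp windows in GRCm38.p6 read with pysam 0.24.0. Shared peaks were weighted over 10 value bins, or these crossed with 5 GC bins. Scripts were tested on simulated data. The depth of each library is unknown, and intervals cover counting error only. Of 360 list entries (352 distinct genes), 344 distinct genes were found. Named peaks are the 10 of highest ratio, the 10 of highest mean, up to 3 per list, the genes with most members and those at the threshold; others were picked after their values were seen and are so described or belong to a named list. The members and lists were chosen with earlier results of these data known.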

Additional observations from a re-analysis of the deposited data

How the results depend on the processing

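Settings tried moved sizes more than directions. The count of members was 159 at a ratio of 2 and 741 at a mean of at least 1. It was 2440 where the overlap had to span at least 50% of each peak, and 2702 with single overlaps only. The difference in promoter share from like value, -15.0 percentage points, was -22.8 at a mean of at least 1, -16.7 with the shorter peak lists, -10.0 and -19.2 with like value taken from replicate 1 or replicate 2 alone, -13.1 with a 500 bp window and -3.71 matched on GC as well. The DMRT difference, 9.48 points, was 13.2 at a ratio of 2, 7.69 with like value from replicate 1, 7.50 matched on GC and 2.50 read backwards. The GC, backward and distance settings were chosen after seeing the data. The difference in footprints per 100 bp, -0.0442 over both libraries, turned to 0.00399 with the shorter lists and 0.0284 with like value from replicate 1, and without a replicate it ranged from -0.174 to 0.0852; it has no stable direction. The Sertoli share, 10.3%, was 0 at a ratio of 2. The excess of members beside members, 4.29 points, was 0.489 at a ratio of 2 and 0.860 beyond 10 kb. NR5A1 turned to -0.733 and SOX to -0.102 points at a ratio of 2, and NR5A1 to -0.128 read backwards. Only 159 members reached a ratio of 2, and the cause of these changes was not tested. With 1 library per replicate, a difference between animals and one between preparations cannot be told apart. No paired analysis was possible because the 2 libraries form 1 group.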
